A study of Mus musculus with 20 samples.

Results

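The comparison described here sets the intestinal mesenchyme of *Eed* KO mouse embryos against the gastric mesenchyme of embryos of the same genotype, and so covers the differences between the 2 organs that were present when the Polycomb repressive complex 2 (PRC2) lacked its EED subunit. Its members were taken from the sample labels, which name 2 *Eed* KO intestine and 2 *Eed* KO stomach RNA-seq libraries, 4 of the 20 samples of the series. The series also holds 4 embryonic control libraries of the same organs, 4 adult intestinal libraries and 8 samples of chromatin accessibility. The control RNA libraries entered the fit so that the spread between replicates could be shared across 4 groups, and served for the test of whether an organ difference depended on genotype.

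All 8 embryonic libraries came from mice at embryonic stage E13.5, which the labels give as C57BL/6 while the study's methods describe mixed backgrounds. *Eed* KO cells had the genotype Eedfl/fl;Bapx1-cre;Rosa26mTmG, and control cells Bapx1-cre;Rosa26mTmG, so that every group carried the Cre allele at *Bapx1* and the mTmG reporter at *Rosa26*. The reporter turns on green fluorescent protein (GFP) in a cell in which Cre has acted and in its descendants, and GFP+ cells were sorted by flow cytometry after the stomach and intestine had been separated. *Eed* was therefore deleted in cells with a history of *Bapx1* (*Nkx3-2*) expression and not in the epithelium, and any mesenchyme without that history was not sampled. The study calls the 2 libraries of a group biological replicates, but the labels do not say whether each came from 1 embryo or from a pool, and p-values measure the spread between these libraries only.

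PRC2 trimethylates lysine 27 of histone H3, a mark of silenced developmental genes, and EED is the subunit that binds this mark and that the enzyme needs for activity. Hox genes, which lie in 4 clusters and give cells their position along the body axis, are among its best known targets, as are the promoters of many homeobox, T-box and forkhead transcription factors. The mesenchyme of the gut arises from splanchnic mesoderm, carries a regional code of such factors and signals to the overlying epithelium through Wnt, BMP, FGF and other ligands.

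Counts on genes were 36996971 and 36132378 in the *Eed* KO intestine and 35876989 and 36332139 in the *Eed* KO stomach, so that the 4 libraries had almost equal depth. Expression is given as CPM, counts scaled to a TMM-adjusted library total of 1000000, a pair of values gives replicates 1 and 2 of a group (n = 2), and where 2 pairs follow each other the first is the intestine. *Eed* itself was at 10.7 and 8.59 CPM in the *Eed* KO intestine and 11.5 and 7.40 CPM in the *Eed* KO stomach, against 38.1 and 40.1 CPM and 40.1 and 41.5 CPM in the controls. Its level in the KO libraries was reduced but not 0, and gene-level counts do not tell which exons the remaining reads came from. Replicate 1 of both *Eed* KO organs expressed Y-linked genes and replicate 2 of both expressed *Xist*. *Ddx3y* was at 119 and 0 CPM in the intestine and 132 and 0.0548 CPM in the stomach, and *Xist* at 0.0792 and 56.1 CPM and 0.0537 and 52.2 CPM, so each organ had 1 library of each kind. All control libraries expressed *Ddx3y*, at 45.1 and 69.1 CPM and 30.5 and 80.3 CPM. The shared spread thus joins *Eed* KO replicates that differ in this way with control replicates that do not. Of the defining markers of mesenchyme, none of 12 was at 0 in the KO libraries. Epithelial markers summed to 42.4 to 75.8 CPM over 11 genes, in contrast to 13411 to 24955 CPM for the 12 mesenchyme markers.

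A gene was called where the edgeR quasi-likelihood test gave a Benjamini-Hochberg adjusted p under 0.05 over the 16218 genes tested and the log2 fold change was above 1 in size. Without *Eed*, the intestine had the higher level of 237 genes (1.46%) and the stomach that of 477 (2.94%). Thus 66.8% of the 714 differences (4.40% of the genes tested) were toward the stomach. A change of more than 4-fold was found in 74 of the intestinal and 215 of the gastric genes, and of more than 16-fold in 13 and 40. In every one of the 714 genes both libraries of one organ were above both of the other, a condition that 44.5% of all genes tested met. The median log2 fold change over all genes tested was -0.001.

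**Figure D1:**
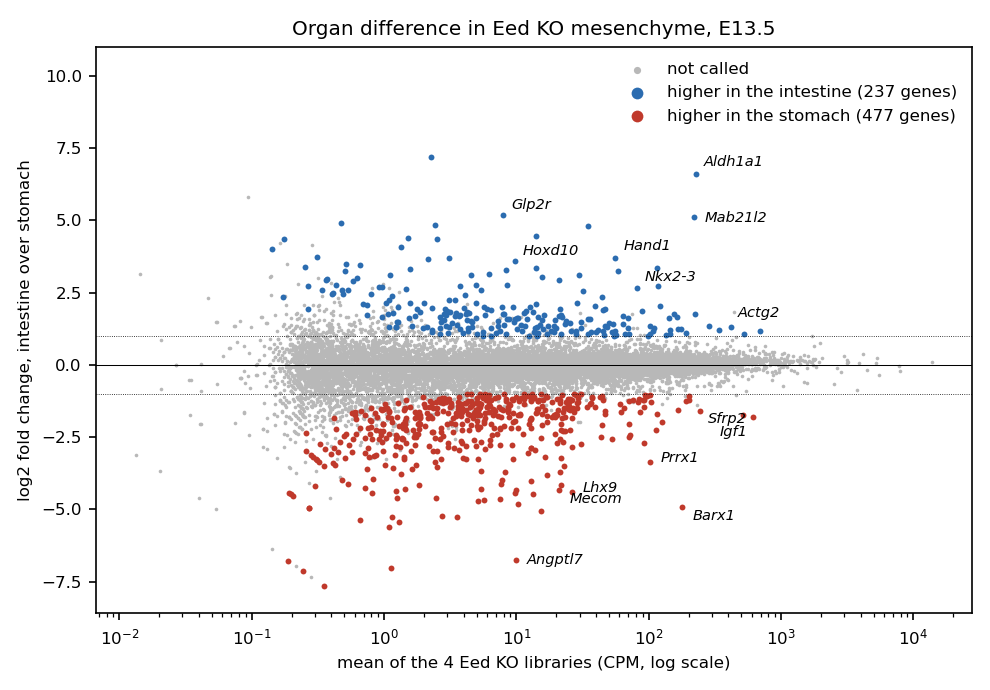
Each point is a gene, with its mean over the 4 Eed KO libraries in CPM on a log axis and its fitted log2 fold change between the Eed KO organs, positive where the intestine was higher. Blue marks the 237 genes called higher in the intestine and red the 477 called higher in the stomach, dotted lines mark a log2 fold change of 1 in size, and *Aldh1a1*, *Mab21l2* and *Barx1* stand apart among the abundant genes.

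These counts rested on few libraries. They were 89 and 292 without replicate 1 of the *Eed* KO stomach, 104 and 200 without its replicate 2, 225 and 257 without replicate 1 of the *Eed* KO intestine, and 166 and 362 without its replicate 2. Some other fits called more genes. The counts were 288 and 563 with DESeq2, 305 and 585 with 1 RUVg spike-in factor, and 322 and 649 without the low-count filter. When libraries were scaled by the spike-in totals, 20 and 95 genes were called and the median of all genes moved by -0.24. The stomach share of the calls was 82.6% with that scaling and 53.3% without replicate 1 of the *Eed* KO intestine. The intestinal libraries held 14932 and 5501 spike-in counts and the gastric ones 12108 and 4871, and so these were higher in replicate 1 of both organs.

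Transcription factors of the gastric mesenchyme that differed were higher in the stomach. Of 14 gastric mesenchyme transcription factors, 8 were higher in the stomach, none was higher in the intestine and 6 were not called. Their median log2 fold change was -1.14, and 2.94% of all genes tested were called higher in the stomach. The list was written with earlier results of these data known. Between the control organs 9 of its members were called higher in the stomach and 0 in the intestine, so this count is a description and no independent test. *Barx1*, a homeobox gene required for stomach identity, was at 9.47 and 13.2 CPM in the *Eed* KO intestine and 379 and 310.3 CPM in the *Eed* KO stomach. The organs did not overlap, and the stomach was 30.4-fold higher (log2 fold change -4.93 ± 0.32 SE, adjusted p = 0.00061). *Mecom*, which encodes a zinc finger factor, was at 1.69 and 2.25 CPM in the intestine and 40.5 and 39.4 CPM in the stomach (log2 fold change -4.34 ± 0.21 SE, adjusted p = 0.00018). *Lhx9*, a LIM homeobox gene, was at 1.48 and 3.31 CPM and 51.2 and 49.4 CPM (log2 fold change -4.40 ± 0.36 SE, adjusted p = 0.0014), and *Nkx6-1*, a homeobox gene, was at 0.633 and 1.23 CPM and 18.1 and 19.5 CPM (log2 fold change -4.34 ± 0.30 SE, adjusted p = 0.0014). All 4 had counts in both intestinal libraries. *Pitx1*, a homeobox gene of the hindlimb, was at 24.4 and 24.2 CPM in the intestine and 152 and 166 CPM in the stomach, a 6.55-fold difference. *Isl1*, which is needed for the pylorus, was at 15.3 and 11.3 CPM and 47.8 and 34.2 CPM, with a smaller 3.08-fold difference. *Wt1*, a zinc finger gene, and *Nr2f1*, an orphan nuclear receptor, were 2.34-fold and 2.09-fold higher in the stomach. By contrast, *Nr2f2*, *Tcf21*, *Meis2*, *Sox11*, *Tbx2* and *Gata5* were not called, with log2 fold changes from -0.82 for *Gata5* to 0.28 for *Sox11*. With each library left out in turn, *Isl1* missed the threshold without replicate 2 of the *Eed* KO intestine or replicate 1 of the *Eed* KO stomach (adjusted p up to 0.08) and *Wt1* without replicate 2 of the *Eed* KO stomach (0.063), while the other 6 kept their calls.

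Pyloric sphincter and spleen factors formed the nearest anatomical list, since the pylorus lies between the organs. *Six2*, a homeobox gene of the pyloric sphincter, was at 29.5 and 26.3 CPM in the *Eed* KO intestine and 112 and 118 CPM in the *Eed* KO stomach (log2 fold change -2.04 ± 0.33 SE, adjusted p = 0.013). *Sox9* was at 3.85 and 5.19 CPM and 15.2 and 13.3 CPM (log2 fold change -1.66 ± 0.19 SE, adjusted p = 0.0041). These were the only called members of 10, and both were higher in the stomach, as were 2.94% of all genes tested. *Nkx2-5* and *Gata3*, which also act in the sphincter, had higher values in the stomach but were not called in the edgeR fit used for the calls. *Nkx2-5* was at 3.06 and 4.42 CPM against 12.8 and 16.6 CPM, and *Gata3* at 3.51 and 4.59 CPM against 12.4 and 17.6 CPM. Both were called in some of the alternative fits described with the processing. *Tlx1*, the spleen determinant, was at 0.0792 and 0.542 CPM and 1.85 and 2.85 CPM. It was called by DESeq2 and in some alternative edgeR fits, but not in the edgeR fit used for the calls. *Nkx3-2*, the gene that carries the Cre allele, was at 36.1 and 31.6 CPM and 18.7 and 21.1 CPM (adjusted p = 0.25). The *Grem1*, *Rgs4*, *Nfia* and *Nr2f6* differences also did not pass. *Six2* missed the threshold without replicate 2 of the *Eed* KO intestine or of the *Eed* KO stomach (adjusted p up to 0.056).

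Factors of the intestinal mesenchyme were split between the organs, with 3 of 12 higher in the intestine against 4 in the stomach. The shares of all genes tested were 1.46% and 2.94%. The list was also split between the control organs, with 2 called higher in the intestine and 3 in the stomach. *Hand1*, a basic helix-loop-helix factor, was at 107 and 100.3 CPM in the *Eed* KO intestine and 5.45 and 10.6 CPM in the *Eed* KO stomach, a 12.9-fold difference (log2 fold change 3.69 ± 0.55 SE, adjusted p = 0.0096). *Nkx2-3*, a homeobox gene of the intestinal mesoderm, was at 138 and 143 CPM and 18.6 and 25.3 CPM, a 6.39-fold difference (log2 fold change 2.68 ± 0.52 SE, adjusted p = 0.025). *Foxf2*, a forkhead gene, was at 136 and 163 CPM and 69.7 and 62.0 CPM (log2 fold change 1.18 ± 0.12 SE, adjusted p = 0.0024). These were the 3 intestinal calls, and the median log2 fold change of the list was 0.05. *Prrx1*, a homeobox gene of limb and craniofacial mesenchyme, was at 16.6 and 19.8 CPM in the intestine and 192 and 181 CPM in the stomach (log2 fold change -3.36 ± 0.24 SE, adjusted p = 0.00083). *Gata4*, a zinc finger gene, was at 10.2 and 20.5 CPM and 87.2 and 93.8 CPM (log2 fold change -2.56 ± 0.30 SE, adjusted p = 0.0039). *Gata6* and *Osr1* differed less, with log2 fold changes of -1.25 and -1.05. *Foxf1* and *Hand2*, the closest relatives of *Foxf2* and *Hand1* in this list, did not reach a log2 fold change of 1, at 0.49 and 0.57. *Osr2* was not called, and *Cdx2* and *Isx* were too low to be tested, at 0.792 and 0.171 CPM and 0.107 and 0.110 CPM for *Cdx2*. Of the 7 calls, *Hand1* was lost without replicate 1 of the *Eed* KO stomach (adjusted p = 0.05), *Nkx2-3* without either *Eed* KO stomach or either control intestine library (adjusted p up to 0.12) and with DESeq2 (0.0571), and *Gata6* and *Osr1* without at least 2 libraries each (up to 0.13 and 0.075).

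**Figure D2:**
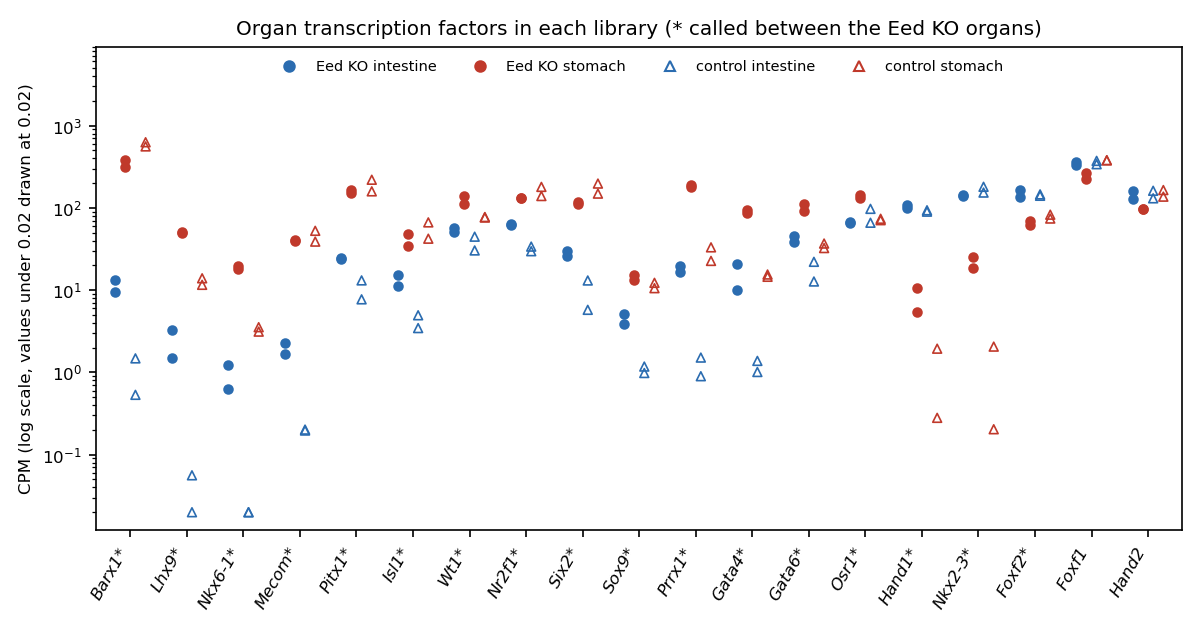
CPM on a log axis in each library for transcription factors of the gastric, pyloric and intestinal lists, with filled circles for the 2 Eed KO libraries of an organ, open triangles for the 2 control libraries, blue for the intestine and red for the stomach; values under 0.02 CPM are drawn at 0.02. The red and blue circles are separate for every starred gene, and the circles of the lower organ lie above its triangles for *Barx1*, *Mecom* and *Nkx2-3*.

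The promoter sequences of 4 of the genes with large organ differences are shown, since PRC2 is known to act at promoters rich in the dinucleotide CG, and these 4 run from rich to poor. Each is the stretch from 250 to 51 bases before the RefSeq start in build GRCm38.p6, all are on the + strand, and capitals mark CG. Of 32817 promoters in the same table, 89.0% held at least 1 CG in this stretch, and the median was 4. The *Barx1* stretch is chr13:48662786-48662985, that of *Nkx2-3* is chr19:43612075-43612274, that of *Hoxd10* is chr2:74691641-74691840 and that of *Aldh1a1* is chr19:20601718-20601917.
*Barx1*: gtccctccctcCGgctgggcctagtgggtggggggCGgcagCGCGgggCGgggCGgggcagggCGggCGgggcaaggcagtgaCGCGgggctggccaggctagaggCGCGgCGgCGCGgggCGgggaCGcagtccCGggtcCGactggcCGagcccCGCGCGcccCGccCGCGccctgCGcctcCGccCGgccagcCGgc
*Hoxd10*: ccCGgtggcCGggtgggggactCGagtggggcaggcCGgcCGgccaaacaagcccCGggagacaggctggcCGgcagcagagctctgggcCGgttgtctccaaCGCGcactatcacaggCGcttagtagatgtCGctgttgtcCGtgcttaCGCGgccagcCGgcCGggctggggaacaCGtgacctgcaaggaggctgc
*Nkx2-3*: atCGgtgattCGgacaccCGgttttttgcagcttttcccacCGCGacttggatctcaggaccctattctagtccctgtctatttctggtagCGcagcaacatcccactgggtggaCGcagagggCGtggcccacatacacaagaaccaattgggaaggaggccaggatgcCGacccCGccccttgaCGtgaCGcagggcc
*Aldh1a1*: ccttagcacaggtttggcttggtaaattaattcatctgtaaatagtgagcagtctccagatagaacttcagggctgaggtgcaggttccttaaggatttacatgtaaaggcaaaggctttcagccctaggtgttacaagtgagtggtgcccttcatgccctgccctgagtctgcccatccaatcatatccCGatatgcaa
CG occurred 30 times in the *Barx1* stretch, 18 times in *Hoxd10*, 12 times in *Nkx2-3* and once in *Aldh1a1*. As many as in *Barx1* were found in 2.09% of promoters, as many as in *Hoxd10* in 12.4% and as many as in *Nkx2-3* in 24.3%.

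Accessibility at the start of these genes did not separate the organs by presence alone. The deposited ATAC-seq peaks were called on pooled replicates, so these values carry no replicate error. All 4 genes had a peak within 1000 bases of the start in both *Eed* KO lists. The fold enrichment of the strongest peak was 5.70 in the intestine and 3.61 in the stomach at *Nkx2-3*, 4.08 and 2.60 at *Aldh1a1*, 2.84 and 2.79 at *Barx1* and 5.37 and 6.17 at *Hoxd10*. Over the called genes, 89.0% of the 237 intestinal genes (95% Clopper-Pearson interval 84.3% to 92.7%) and 91.8% of the 477 gastric genes (89.0% to 94.1%) had a peak in both lists, beside 88.4% of the 16191 genes with a position. With peaks of a -log10 q of at least 5, these shares were 75.95%, 81.76% and 84.91%, and both lists were then below all genes. A peak in only 1 list was found at 9 intestinal genes, 8 of them with the peak in the intestine, and at 9 gastric genes, 7 of them with the peak in the stomach. *Tdo2*, with a peak in the intestinal list alone, was among the 12 largest intestinal differences. *Abca8a*, among the 12 largest gastric differences, had its peak in the intestinal list.

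The Hox genes called between the *Eed* KO organs lay in the HoxC and HoxD clusters. Of 39 Hox genes, all tested, 10 were called toward the intestine and 1 toward the stomach, and the median log2 fold change was -0.02. The shares of all genes tested were 1.46% and 2.94%. The 10 were *Hoxc6*, *Hoxc8*, *Hoxc9*, *Hoxc10*, *Hoxd1*, *Hoxd3*, *Hoxd9*, *Hoxd10*, *Hoxd11* and *Hoxd12*. In HoxC, *Hoxc8* was at 75.3 and 72.4 CPM in the *Eed* KO intestine and 14.7 and 14.4 CPM in the *Eed* KO stomach, a 5.07-fold difference (log2 fold change 2.34 ± 0.16 SE, adjusted p = 0.00063). The intestine also exceeded the stomach by 2.52-fold for *Hoxc6*, 2.53-fold for *Hoxc9* and 3.00-fold for *Hoxc10*. The order turned at the posterior end of this cluster, where *Hoxc13* was at 0.554 and 0.485 CPM in the intestine and 1.96 and 2.58 CPM in the stomach (log2 fold change -2.12 ± 0.35 SE, adjusted p = 0.027). *Hoxc12* had its higher values in the stomach as well, at 0.106 and 0.371 CPM and 0.751 and 2.33 CPM, but did not pass, and *Hoxc11* at 4.96 and 3.28 CPM and 4.21 and 5.65 CPM overlapped between the organs. In HoxD, *Hoxd10* was at 21.9 and 13.9 CPM in the intestine and 1.10 and 1.86 CPM in the stomach, the largest Hox difference at 12.1-fold (log2 fold change 3.59 ± 0.42 SE, adjusted p = 0.0062). *Hoxd11* was at 12.9 and 9.39 CPM and 1.23 and 1.29 CPM (log2 fold change 3.14 ± 0.28 SE, adjusted p = 0.0025), and *Hoxd12* at 6.97 and 5.76 CPM and 1.37 and 1.92 CPM (log2 fold change 1.95 ± 0.26 SE, adjusted p = 0.0097). *Hoxd9* was 3.32-fold higher in the intestine, and the low *Hoxd1* and *Hoxd3* were 6.09-fold and 7.46-fold higher. *Hoxd13*, which neighbours *Hoxd12*, was not called, at 20.3 and 22.0 CPM in the intestine and 25.8 and 32.5 CPM in the stomach. *Hoxc6*, *Hoxc8*, *Hoxd10* and *Hoxd11* were called without each library in turn, *Hoxc9* was lost without replicate 2 and *Hoxd12* without replicate 1 of the *Eed* KO stomach (adjusted p = 0.063 and 0.052), and *Hoxc10*, *Hoxc13*, *Hoxd1*, *Hoxd3* and *Hoxd9* were lost without each of at least 3 *Eed* KO libraries (up to 0.15, 0.16, 0.25, 0.20 and 0.14).

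No posterior HoxA gene was called between the *Eed* KO organs. *Hoxa10* was at 57.3 and 31.5 CPM in the intestine and 40.6 and 36.9 CPM in the stomach, *Hoxa11* at 18.4 and 13.6 CPM and 9.66 and 13.1 CPM, and *Hoxa13* at 16.3 and 15.6 CPM and 20.1 and 29.6 CPM. The first overlapped between the organs, the second was slightly higher in the intestine and the third slightly higher in the stomach, with log2 fold changes of 0.19, 0.49 and -0.64. None of the 11 HoxA and 10 HoxB genes was called, and their log2 fold changes ran from -1.07 for *Hoxb13* to 0.53 for *Hoxb2*. *Hoxb13* missed the threshold for p (adjusted p = 0.056), and *Hoxa5* and *Hoxb5* passed it below the threshold for fold, higher in the stomach with log2 fold changes of -0.62 and -0.60 (adjusted p = 0.043 and 0.032). No test compared the clusters with each other. In the control stomach 14 Hox genes had no count in either library, and each of the 14 had counts in both *Eed* KO stomach libraries. Of these 14, 11 were called toward the intestine between the control organs, and 7 of the 11 were also called between the *Eed* KO organs. The 4 that were not were *Hoxa10*, *Hoxa11*, *Hoxa13* and *Hoxc11*. Gene models overlap within the clusters, *Hoxc5* with *Hoxc6*, *Hoxc8*, *Hoxc9* and *Hoxc10* for example, and *Hoxa11* overlaps an antisense gene, so reads may be shared among neighbours. *Hoxd3* shares a model with *Hoxd4*, and *Hoxd10* and *Hoxd11* with *Gm28309*. Among HoxA and HoxB together, 2 genes in the intestinal and 5 in the gastric direction had an unadjusted p under 0.05 by edgeR, and DESeq2 called 1 of them, *Hoxb13*, higher in the stomach. The number of Hox genes called higher in the intestine was 5 without either *Eed* KO stomach library, 6 without replicate 1 of the *Eed* KO intestine, 6 in a fit of the 4 *Eed* KO libraries alone and 1 with spike-in scaling.

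**Figure D3:**
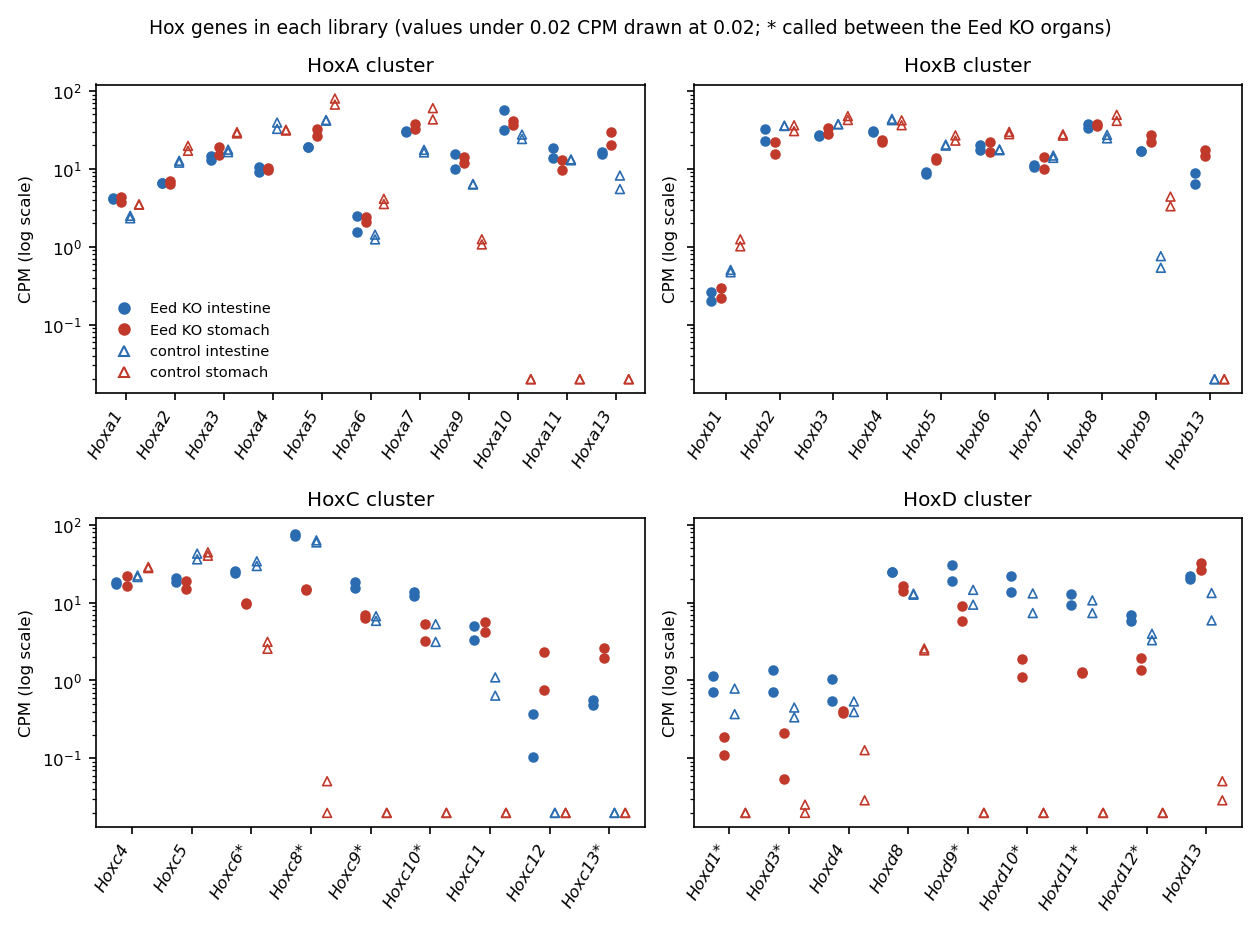
CPM on a log axis in each library for the 39 Hox genes, in 4 panels by cluster and ordered by paralogue group, with filled circles for Eed KO, open triangles for control, blue for the intestine and red for the stomach; values under 0.02 CPM are drawn at 0.02 and a star marks a call between the Eed KO organs. Stars lie in the HoxC and HoxD panels, where red and blue circles are apart from *Hoxc6* to *Hoxc10* and from *Hoxd9* to *Hoxd12*.

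Of the neighbours of the HoxD cluster, those that were called had the same direction as its genes. Within 1000000 bases of the cluster, which spans chr2:74668310-74765142 in mm10, 14 other genes were tested, and the 3 that were called were all higher in the intestine. The neighbours of all 4 clusters were named after their values had been seen. *Gm14396* lies within the cluster. *Gm13652* and *2600014E21Rik* start on opposite strands at chr2:75137798 and chr2:75138842 and have the same strongest promoter peak in both lists. Their 2 calls may therefore not be independent. *Gm13652*, 360.0 kb away, was at 6.28 and 3.31 CPM in the intestine and 0.161 and 0.302 CPM in the stomach. *2600014E21Rik*, a noncoding transcript 374 kb away, was at 5.59 and 3.45 CPM and 0.0268 and 0.0274 CPM, among the 12 largest intestinal differences at a ratio of 168 (95% counting interval 46.2 to 1395). Of 21 genes tested within or near HoxA, 4 were called and all were higher in the stomach. These included *Evx1*, a homeobox gene 52.6 kb from the cluster, at 0.844 and 1.26 CPM in the intestine and 5.37 and 7.71 CPM in the stomach. The antisense *5730457N03Rik*, whose model overlaps *Evx1*, was another, with *Nfe2l3* and *Hoxaas2* as the others. *Hoxaas2* lies within the cluster and overlaps the model of *Hoxa3* on the opposite strand, so reads may be shared. Beside HoxB, *Abi3* and *B4galnt2* of 49 neighbours were higher in the intestine and *Prr15l* in the stomach, and beside HoxC *Amhr2* and *Pde1b* of 40 were higher in the stomach. The HoxB and HoxC shares, 6.12% and 5.00%, were near the 4.40% of all genes. Those of HoxD and HoxA were 21.43% and 19.05%, of only 14 and 21 genes, and their excess was not tested. *Gm13652* missed the threshold without either *Eed* KO stomach library (adjusted p up to 0.065) and *Evx1* without replicate 2 of the *Eed* KO stomach (0.058).

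Beyond the listed transcription factors, the largest intestinal differences included genes of retinoid metabolism. *Aldh1a1*, which makes retinoic acid, was at 363 and 535 CPM in the *Eed* KO intestine and 5.66 and 3.62 CPM in the *Eed* KO stomach, a 96.6-fold difference (log2 fold change 6.59 ± 0.37 SE, adjusted p = 0.00042). Its neighbour and near copy *Aldh1a7* was 27.8-fold higher, and reads may be shared between the pair. *Lrat*, which esterifies retinol, was at 1.79 and 3.99 CPM and 0.0805 and 0.192 CPM (log2 fold change 4.38 ± 0.54 SE, adjusted p = 0.005). *Mab21l2*, a gene of eye and body wall development, was at 429 and 424 CPM and 9.36 and 15.5 CPM, a 34.3-fold difference. *Glp2r*, the receptor of the gut hormone GLP-2, was at 17.0 and 13.8 CPM and 0.402 and 0.439 CPM (log2 fold change 5.18 ± 0.21 SE, adjusted p = 0.00018). The intestinal excess was 28.4-fold for *Tdo2*, which degrades tryptophan, 21.8-fold for *Slc4a10*, a bicarbonate transporter, 16.7-fold for *Ppef2*, a phosphatase, and 13.1-fold for *Otof*, an exocytosis protein. *Mab21l2* missed the threshold without replicate 1 of the *Eed* KO stomach (adjusted p = 0.052) and *Otof* without its replicate 2 (0.058).

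Among the largest gastric differences, *Angptl7*, a secreted angiopoietin-like protein, was at 0.0528 and 0.314 CPM in the *Eed* KO intestine and 14.2 and 25.3 CPM in the *Eed* KO stomach (log2 fold change -6.76 ± 0.58 SE, adjusted p = 0.0015). *Pappa2*, a protease of IGF binding proteins, was at 0.633 and 1.17 CPM and 25.9 and 33.3 CPM, a 32.9-fold difference. *Sim2*, a basic helix-loop-helix gene, was at 0.343 and 1.08 CPM and 15.5 and 24.4 CPM. Its relative *Sim1* was at 0.0264 and 0.0856 CPM and 2.82 and 2.22 CPM, so both Sim genes were higher in the stomach. *Ralyl*, an RNA binding protein, and *Ces2g*, a carboxylesterase, were 26.4-fold and 38.2-fold higher. *Cym*, *Htr2c* and *Abca8a* had 3 or fewer counts in the *Eed* KO intestine, and their ratios were 162 (95% counting interval 28.7 to 6447), 52.4 (95% counting interval 17.6 to 257) and 46.5 (95% counting interval 12.5 to 389.6). *Emx2os*, which lies opposite to *Emx2* and overlaps its model, was 37.6-fold higher. The strand setting of the counting is not given in the sources used here, so *Emx2os* and *Emx2* reads could not be told apart. *Abca8a* and *Cym* lost their calls without at least 3 of the *Eed* KO libraries (adjusted p up to 0.078 and 0.16), and the other genes of this paragraph kept theirs without each library in turn.

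Among the most abundant genes called higher in the stomach, *Igf1*, which encodes insulin-like growth factor 1, was at 297 and 249.7 CPM in the *Eed* KO intestine and 977 and 943 CPM in the *Eed* KO stomach, 3.51-fold higher (log2 fold change -1.81 ± 0.11 SE, adjusted p = 0.00046). *Sulf1*, which trims heparan sulfate, was at 180.0 and 303 CPM and 644 and 950.2 CPM (log2 fold change -1.72 ± 0.29 SE, adjusted p = 0.015). *Tril*, *Anxa2* and *Cav1* were 2.32-fold, 2.09-fold and 2.39-fold higher in the stomach. On the intestinal side the abundant genes were mostly those of smooth muscle, apart from *Aldh1a1* and *Nnat*, an imprinted gene at 810.5 and 616 CPM in the intestine and 340.1 and 337 CPM in the stomach (log2 fold change 1.07 ± 0.19 SE, adjusted p = 0.019). *Igf1* was called without each library in turn, *Sulf1*, *Cav1* and *Tril* were not without replicate 2 of the *Eed* KO stomach (adjusted p = 0.073, 0.057 and 0.091), *Tril* was not without replicate 1 of the *Eed* KO intestine either, and *Anxa2* and *Nnat* were not without either *Eed* KO stomach library (up to 0.066 and 0.11).

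Contractile genes were higher in the *Eed* KO intestine, although not in every choice of libraries. Of 12 smooth muscle markers, 6 were higher in the intestine, none in the stomach and 6 were not called, with a median log2 fold change of 1.15. The shares of all genes tested were 1.46% in the intestine and 2.94% in the stomach. *Actg2*, the enteric smooth muscle actin, was at 465 and 731 CPM in the intestine and 238 and 245 CPM in the stomach (log2 fold change 1.31 ± 0.28 SE, adjusted p = 0.034). *Mylk*, the myosin light chain kinase, was at 708 and 1225 CPM and 401 and 457 CPM, and *Synpo2*, an actin binding protein, at 295 and 523 CPM and 139 and 185 CPM. *Tagln*, an actin binding protein, and *Des*, the muscle intermediate filament, were 2.30-fold and 2.41-fold higher. Summed over the 12 markers, the intestinal libraries stood at 4408 and 7597 CPM and the gastric libraries at 2487 and 2875 CPM, so the intestinal libraries were further from each other than the lower of them was from the stomach. *Actg2*, *Mylk*, *Synpo2* and *Tagln* lost their calls without either *Eed* KO stomach library (adjusted p up to 0.18), and *Des* without replicate 1 alone (0.055). The number of markers called was 11 without replicate 1 of the *Eed* KO intestine, 1 without its replicate 2, 0 and 1 without replicates 1 and 2 of the *Eed* KO stomach, 2 without either control stomach library, 1 in a fit of the 4 *Eed* KO libraries and 0 with spike-in scaling. In sorted bulk samples, a larger share of muscle cells and more RNA per cell cannot be told apart. Of 6 markers of interstitial cells of Cajal, the pacemaker cells, *Thbs4* and *Gpr20* were higher in the intestine, with log2 fold changes of 1.93 and 1.40, but the other 4 members were not called. Both were lost without replicate 1 of the *Eed* KO stomach (adjusted p = 0.059 for *Thbs4*, up to 0.08 for *Gpr20*).

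Wnt ligands and modulators that differed were higher in the stomach. Of 13 Wnt ligands tested, 2 were higher in the stomach and none in the intestine, beside backgrounds of 2.94% and 1.46%. *Wnt11* was at 13.1 and 8.79 CPM in the *Eed* KO intestine and 35.8 and 32.7 CPM in the *Eed* KO stomach (log2 fold change -1.64 ± 0.21 SE, adjusted p = 0.0056), and the low *Wnt3* at 0.13 and 0.20 CPM and 0.832 and 1.15 CPM. *Wnt5a*, the most abundant Wnt ligand, was at 388 and 388 CPM and 267 and 233 CPM with a log2 fold change of 0.63 and did not pass (adjusted p = 0.068). *Wnt2b*, also abundant, was at 39.5 and 52.8 CPM and 68.3 and 99.3 CPM and did not pass either. Of 16 secreted Wnt modulators, 4 were higher in the stomach and none in the intestine. *Sfrp2*, a Wnt binding inhibitor, was at 98.3 and 145 CPM and 337 and 393 CPM (log2 fold change -1.59 ± 0.24 SE, adjusted p = 0.0097). *Sostdc1*, an inhibitor of Wnt and BMP signals, and *Rspo4*, an R-spondin, were 2.02-fold and 2.86-fold higher, and *Sfrp4* was higher at levels under 1 CPM. *Rspo3* at 69.7 and 78.0 CPM and 54.9 and 58.0 CPM and *Sfrp1* at 553 and 863 CPM and 749 and 794 CPM were not called. *Wnt11* alone kept its call without each library in turn. *Sfrp2* was lost without replicate 2 of the *Eed* KO stomach (adjusted p = 0.054), and *Wnt3*, *Sostdc1*, *Rspo4* and *Sfrp4* without at least 3 of the *Eed* KO libraries (up to 0.22). *Rspo4* was also not called by DESeq2.

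FGF and TGF-beta ligands that differed were higher in the stomach, BMP genes went both ways, and 3 of 12 neurotrophic ligands were higher in the intestine. For the counts that follow, the shares of all genes tested were 2.94% in the stomach and 1.46% in the intestine. Of 14 FGF ligands, *Fgf7*, *Fgf10* and *Fgf12* were higher in the stomach. *Fgf10*, a mesenchymal signal to the epithelium, was at 30.9 and 23.6 CPM in the *Eed* KO intestine and 63.7 and 62.2 CPM in the *Eed* KO stomach (log2 fold change -1.21 ± 0.24 SE, adjusted p = 0.028), and *Fgf7* at 0.396 and 0.399 CPM and 5.04 and 4.28 CPM. Of 11 TGF-beta and activin ligands, 3 were higher in the stomach, *Tgfb2* by 2.35-fold, *Inhba* by 2.71-fold and the low *Mstn*. Of 20 BMP genes, 2 were called in each direction. The ligand *Bmp5* was at 80.2 and 77.4 CPM in the intestine and 31.5 and 27.3 CPM in the stomach (log2 fold change 1.42 ± 0.12 SE, adjusted p = 0.0015) and the antagonist *Nog* was 3.11-fold higher in the intestine, whereas the ligand *Bmp6* and the antagonist *Chrdl1* were 2.02-fold and 2.26-fold higher in the stomach. In the retinoic acid pathway, *Cyp26a1*, which degrades retinoic acid, was at 1.00 and 0.770 CPM and 5.34 and 3.65 CPM, and *Crabp1*, a retinoic acid binding protein, at 39.3 and 40.5 CPM and 198 and 180.3 CPM. Thus 1 synthetic enzyme, *Aldh1a1*, was higher in the intestine and a degrading enzyme and a carrier were higher in the stomach, out of 15 genes tested. None of the neurotrophic ligands was called toward the stomach. *Gdnf*, which guides enteric neural crest cells, was at 68.0 and 69.9 CPM and 28.5 and 27.2 CPM (log2 fold change 1.31 ± 0.10 SE, adjusted p = 0.0012), *Edn3*, which acts on the same cells, at 72.8 and 72.1 CPM and 33.1 and 39.3 CPM, and *Ntn1*, a guidance cue, at 103 and 193 CPM and 55.5 and 60.1 CPM. Enteric neural crest markers summed over 11 genes to 262 and 301 CPM in the intestine and 169 and 181 CPM in the stomach. Their median log2 fold change was -0.23, however, and the 1 called member, *S100b*, was higher in the stomach. The part of enteric neural crest cells in these differences was not tested. None of 14 Hedgehog ligands and response genes was called by edgeR or DESeq2, 2 and 3 had an unadjusted p under 0.05 in the intestinal and gastric directions, and the receptor *Ptch1* was at 487 and 712 CPM and 479 and 461 CPM. *Fgf7*, *Fgf12*, *Tgfb2*, *Bmp5*, *Chrdl1*, *Cyp26a1*, *Crabp1* and *Gdnf* were called without each library in turn, whereas *Fgf10*, *Inhba*, *Nog*, *Bmp6*, *Edn3* and *Ntn1* were lost without replicate 1 of the *Eed* KO stomach and at least 1 other library (adjusted p up to 0.14, and for *Edn3* a log2 fold change below 1).

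Of the matrix, prostaglandin and axon guidance genes, 10.0%, 35.7% and 8.57% were called, beside 4.40% of all genes. *Postn*, which encodes periostin, was at 269 and 423 CPM in the *Eed* KO intestine and 70.6 and 134 CPM in the *Eed* KO stomach (log2 fold change 1.76 ± 0.37 SE, adjusted p = 0.033), and *Col23a1* was 2.05-fold higher in the intestine. *Tnc*, which encodes tenascin C, was at 50.4 and 51.7 CPM and 165 and 239 CPM (log2 fold change -1.99 ± 0.17 SE, adjusted p = 0.0014), and these were the 3 calls among 30 matrix genes. Of 14 prostaglandin genes, *Ptgs2*, the inducible cyclooxygenase, and *Ptgir*, the prostacyclin receptor, were 3.25-fold and 3.31-fold higher in the intestine, and 3 receptors, *Ptgfr*, *Ptger3* and the low *Ptgdr*, were higher in the stomach. Among 35 axon guidance genes, *Ntn1* was higher in the intestine, and *Dcc*, a netrin receptor, and *Sema3c*, a semaphorin, were 9.64-fold and 2.44-fold higher in the stomach. *Tnc*, *Ptgir* and *Dcc* were called without each library in turn, *Ptgs2* was lost without replicate 2 of the *Eed* KO stomach (adjusted p = 0.084), and *Postn*, *Col23a1*, *Ptger3*, *Ptgfr*, *Ntn1* and *Sema3c* were lost without replicate 2 of the *Eed* KO intestine and at least 2 other libraries (up to 0.14).

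Several transcription factor genes that were scarce in the control organs were present in both *Eed* KO organs and higher in the stomach. *Zic1*, a zinc finger gene of the neural tube, had no counts in any control library and was at 2.35 and 5.05 CPM in the *Eed* KO intestine and 38.2 and 45.6 CPM in the *Eed* KO stomach (log2 fold change -3.51 ± 0.37 SE, adjusted p = 0.0077). Its model overlaps that of *Zic4*. *Lhx6*, a LIM homeobox gene, was at 2.16 and 2.71 CPM and 10.1 and 12.2 CPM (log2 fold change -2.19 ± 0.28 SE, adjusted p = 0.0054). *Tbx5*, a T-box gene of heart and forelimb, was at 2.51 and 4.37 CPM and 8.64 and 11.5 CPM (log2 fold change -1.56 ± 0.31 SE, adjusted p = 0.037), and *Pax6*, a gene of eye and endocrine cells, at 0.712 and 2.23 CPM and 8.53 and 10.0 CPM. *Cdkn2a*, a cell cycle inhibitor locus and a well known PRC2 target, was at 10.3 and 15.8 CPM and 36.4 and 39.9 CPM (log2 fold change -1.55 ± 0.27 SE, adjusted p = 0.017), with a highest control value of 0.058 CPM. Counted over all genes tested, 2821 (17.4%) had a mean under 1 CPM in both control organs, as did 10.1% of the intestinal calls and 24.3% of the gastric calls. Of the 2821, 238 had a mean of at least 1 CPM in both *Eed* KO organs, and of these 238 genes 21 were called higher in the stomach and none in the intestine. Over all genes tested, 2.94% were called higher in the stomach and 1.46% in the intestine. The set of 238 was defined by levels in the same *Eed* KO libraries that gave the calls. In the intestinal direction 7 of the 238 had an unadjusted p under 0.05 by edgeR, and DESeq2 called *Tie1* in the intestine and 28 genes in the stomach. The other members of this set, *Shox2*, *Sox2* and *Tfap2a* among them, were named after their values had been seen, and *Shox2*, a homeobox gene, was at 1.90 and 2.68 CPM and 11.8 and 12.3 CPM. *Zic1*, *Lhx6* and *Shox2* were called without each library in turn, and *Cdkn2a*, *Pax6* and *Tbx5* were lost without replicate 2 of the *Eed* KO stomach and at least 1 other library (adjusted p up to 0.087, 0.13 and 0.19).

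By family, 5 of 11 genes of the *Six2*, *Eya1* and *Dach1* families, 4 of 9 LIM homeobox genes, 3 of 11 T-box genes, 2 of 6 Pax genes and 4 of 17 forkhead genes were higher in the stomach. Over all genes tested, 2.94% were higher in the stomach and 1.46% in the intestine. In these families *Foxf2* was the only gene higher in the intestine. Of 7 Nkx genes tested, 2 were called in each direction. *Eya4*, a transcriptional cofactor, was at 5.28 and 6.88 CPM and 35.4 and 37.2 CPM (log2 fold change -2.58 ± 0.24 SE, adjusted p = 0.0017), and *Tbx18* at 4.56 and 6.08 CPM and 21.5 and 18.8 CPM. The forkhead genes *Foxc1* and *Foxc2* were 3.26-fold and 3.17-fold higher. *Eya4* was called without each library in turn, *Foxc1* and *Foxc2* were lost without replicate 2 of the *Eed* KO stomach (adjusted p up to 0.066 and 0.066) and *Tbx18* without any 1 of the *Eed* KO libraries (up to 0.12). No call was made by edgeR or DESeq2 among 9 Hox cofactors, 5 Iroquois genes, 18 cell cycle genes and 23 subunits of PRC2 and PRC1. At an unadjusted p under 0.05, 13 of the 18 cell cycle genes and 2 of the 9 cofactors had higher values in the intestine, and 2 Iroquois genes and 2 subunits had higher values in the stomach, beside 3234 (19.9%) of all 16218 genes in either direction. *Mcm2*, a replication factor, was at 218 and 233 CPM and 181 and 194 CPM, and *Rbbp4*, a histone binding subunit of PRC2, at 667 and 564 CPM and 595 and 504 CPM.

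**Figure D4:**
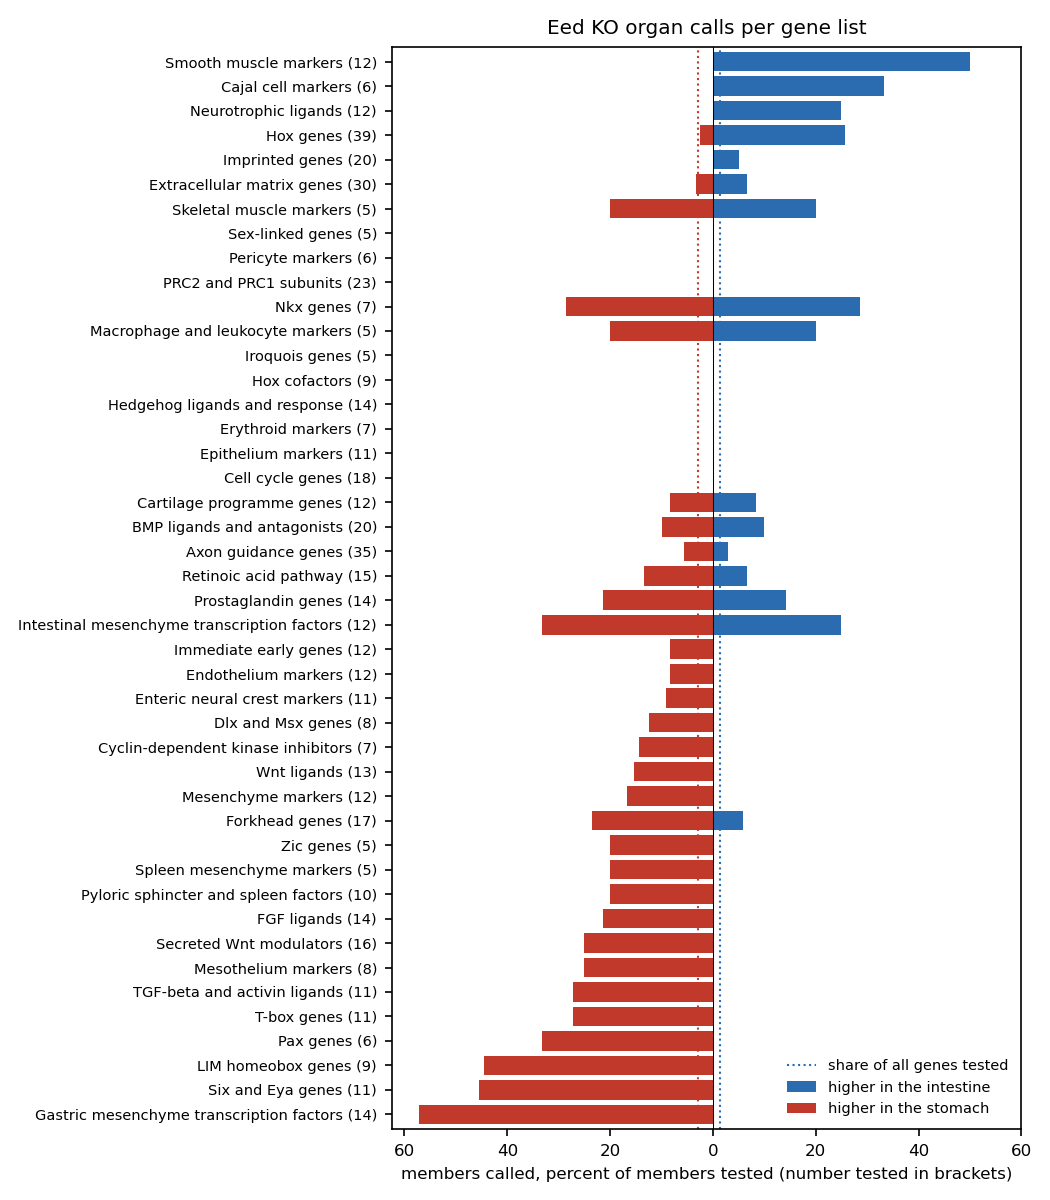
Bars give the percent of the tested members of each list that were called higher in the Eed KO intestine (blue, right) or in the Eed KO stomach (red, left), for lists with at least 5 members tested, and dotted lines give the same shares over all genes, 1.46% and 2.94%. Gastric factors reach 57.1% on the stomach side and smooth muscle markers, with 6 of 12 called, extend farthest on the intestinal side. The lists were written with earlier results of these data known.

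Markers of other cell types were compared in the same fit. Mesothelial markers, 8 in all, summed to 436 and 423 CPM in the *Eed* KO intestine and 456 and 592 CPM in the *Eed* KO stomach, and *Wt1* and *Gpm6a* were called higher in the stomach with log2 fold changes of -1.23 and -1.80. *Wt1* was counted among the gastric factors too, and the part of the mesothelium in its difference was not tested. The 12 endothelial markers summed to 69.8 and 68.0 CPM in the intestine and 44.3 and 66.0 CPM in the stomach, with a median log2 fold change of 0.29. The low *Erg* was the 1 call and was higher in the stomach. Its call was lost without any 1 of the 8 libraries, with log2 fold changes from -1.35 to -0.98. DESeq2 called 2 endothelial markers in the intestine and 1 in the stomach. Of the enteric neural crest markers, only *S100b* of 11 was called and it was higher in the stomach. *Ednrb*, at 86.0 and 162 CPM and 56.3 and 63.7 CPM, was not called in the edgeR fit used for the calls (adjusted p = 0.062). It was called in the intestine by DESeq2. Pancreatic markers summed to under 2 CPM in every *Eed* KO library, with *Ptf1a*, *Ins1* and *Neurog3* at 0. Erythroid markers summed to 18.3 and 6.02 CPM in the intestine and 6.25 and 2.08 CPM in the stomach, and none of 7 was called by edgeR, although 2 intestinal and 1 gastric value had an unadjusted p under 0.05 and DESeq2 called *Hbb-bs* in the intestine. Macrophage markers summed to 6.50 to 9.63 CPM over 11 genes, and of the 5 that were tested *Lyz2* was called in the intestine and *Mrc1* in the stomach.

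The organ differences of *Eed* KO and control mesenchyme overlapped in part. The 2 contrasts share no library but share the estimate of spread. Of the 237 intestinal calls in *Eed* KO, 140 (59.1%) were also called higher in the control intestine, where 273 genes (1.68%) were called. Of the 477 gastric calls, 298 (62.5%) were also called in the control stomach, where 549 genes (3.39%) were called. The shared genes made up 51.3% and 54.3% of the control lists. *Syt4*, a synaptotagmin, was the 1 gene called in opposite directions, at 2.06 and 1.63 CPM in the *Eed* KO intestine and 0.617 and 0.713 CPM in the *Eed* KO stomach, and 2.89 and 2.39 CPM and 4.84 and 5.76 CPM in the controls, and its *Eed* KO call was lost without 3 of the *Eed* KO libraries (adjusted p up to 0.10). The remaining 96 and 179 genes were called in *Eed* KO and not in control. Of these, 87 and 157 had a control log2 fold change in the same direction that did not pass. The sum of shared genes, 438, was 231 without replicate 2 and 263 without replicate 1 of the *Eed* KO stomach, 234 without replicate 1 of the control intestine, 291 without replicate 1 and 272 without replicate 2 of the control stomach.

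A call in one genotype alone does not show a difference between genotypes, and the difference itself was tested with the interaction contrast, which was called at an adjusted p under 0.2, the limit the study used, with a log2 change above 1 in size. This contrast called 75 genes (0.462%) of 16218, 31 (0.191%) with an organ difference moved toward the intestine in *Eed* KO and 44 (0.271%) moved toward the stomach. It called 32 without replicate 2 of the *Eed* KO stomach, 32 and 43 without replicates 1 and 2 of the control intestine and 27 without replicate 2 of the control stomach, and 207 with DESeq2. Of the 96 and 179 genes called in *Eed* KO alone, 5 and 8 passed. On the intestinal side these were *Il33*, *P2ry1*, *Tmem215*, *Cldn15* and *C1qtnf3*, which were named after their values had been seen. *Cldn15*, a claudin, was at 21.3 and 19.1 CPM in the *Eed* KO intestine and 4.94 and 5.27 CPM in the *Eed* KO stomach but at 24.0 and 34.5 CPM and 27.7 and 31.1 CPM in the controls (interaction log2 change 1.99, adjusted p = 0.053). *Il33*, an alarmin cytokine, was at 42.2 and 49.1 CPM and 15.6 and 16.6 CPM, and at 48.3 and 45.7 CPM and 39.0 and 47.3 CPM in the controls. In both genes the *Eed* KO stomach was the group that stood apart. On the gastric side *Crh*, *Ebf2*, *Epyc*, *Kcnh1*, *Sstr4*, *Dsc2*, *Lhfpl2* and *Mgp* passed, named in the same way. *Ebf2*, a factor of adipocyte and neural precursors, was at 2.74 and 3.25 CPM and 11.1 and 14.9 CPM, against 0.506 and 0.976 CPM and 0.377 and 0.306 CPM in the controls, and *Lhfpl2* at 48.4 and 60.7 CPM and 160.0 and 195 CPM, against 46.0 and 48.2 CPM and 58.3 and 48.9 CPM. Each of these 4 interactions missed its threshold without at least 1 library (adjusted p up to 0.23, 0.28, 0.34 and 0.29).

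Among the genes called in both genotypes, the interaction passed for 10 of the 140 intestinal and 11 of the 298 gastric genes. *Barx1* kept its direction with a smaller difference in *Eed* KO, with control values of 0.534 and 1.48 CPM in the intestine and 627 and 557 CPM in the stomach (interaction log2 change 4.31 ± 0.46 SE, adjusted p = 0.031). *Mecom* behaved in the same way, with control values of 0.197 and 0.202 CPM and 38.8 and 52.5 CPM (interaction log2 change 3.48, adjusted p = 0.03). In the control stomach *Nkx2-3* was at 2.06 and 0.204 CPM, below both *Eed* KO stomach libraries (interaction log2 change -4.57, adjusted p = 0.12). *Hoxc8*, *Hoxc9*, *Hoxd9* and *Hoxd11* also kept their direction, and passed. The interactions of *Barx1* and *Mecom* passed without each library in turn, and that of *Nkx2-3* did not pass without 3 of the 8 (adjusted p up to 0.43). For *Hand1*, *Aldh1a1*, *Lhx9* and *Hoxd10* the interaction did not pass, with adjusted p of 0.51, 0.50, 0.30 and 0.21. Of the 133 genes called in the control intestine and not in the *Eed* KO intestine, 23 passed, and of the 250 such gastric genes 10 passed. The posterior HoxA genes were in the first set. *Hoxa10* was at 27.6 and 24.2 CPM in the control intestine and 0 in both libraries of the control stomach, a difference of at least 639-fold against 3 counts over the group, and its interaction had an adjusted p of 0.0099.

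**Figure D5:**
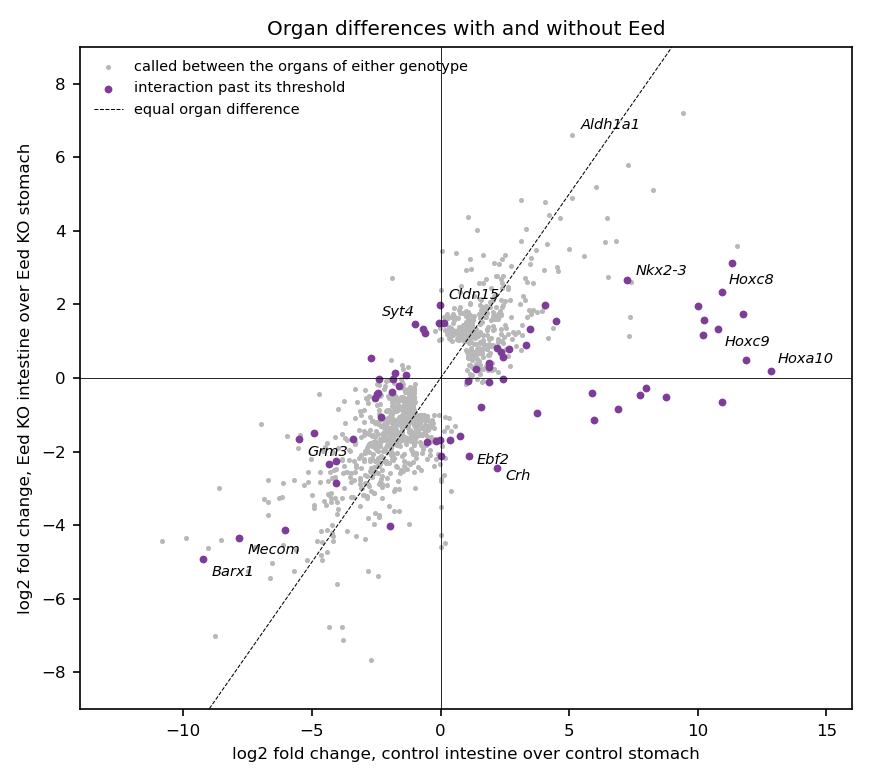
The fitted log2 fold change of intestine over stomach in control (horizontal axis) and in Eed KO (vertical axis) for the 1097 genes called between the organs in either genotype, with the 68 of them that passed the interaction test in purple and a dashed line at equal difference. *Hoxa10* lies near 0 on the vertical axis and far out on the horizontal one, *Syt4* is in the opposite quadrant, and points at 0 on the horizontal axis include genes without counts in either control organ, whose fitted control value is no measurement. Values far out on the horizontal axis, where the control stomach had no counts, depend on the prior count of the fit.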

How the data were processed

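Raw counts were deposited by the authors, who trimmed reads with Trimmomatic 0.32, aligned them with STAR 2.5.1b to GRCm38/mm10 with spike-in sequences and counted them with featureCounts on GENCODE vM4. Libraries were directional and made from poly(A) RNA, and the strand setting of the counting is not given in the sources used here. ATAC-seq peaks were called by the authors with MACS2 2.1.2 on pooled replicates, and the deposited lists give a fold enrichment ratio and a -log10 q for each peak.

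The 99 spike-in rows were set aside, and 43280 gene symbols remained. Depth was 30236159 to 39606157 counts on genes per library. At such depth 3 counts, the limit that a count of 0 allows, stand for 0.0757 to 0.0992 CPM. Intervals and limits cover counting error only. edgeR 4.0.16 in R 4.3.3 was used with TMM scaling, filterByExpr, 4 group means over the 8 embryonic libraries and the quasi-likelihood F-test. Each standard error is the log2 fold change divided by the root of its F. Adjusted p were by Benjamini-Hochberg over the 16218 genes that passed the filter. Where a group held 1 to 3 counts, a ratio with an exact 95% interval replaced the fitted fold, and against 0 counts a lower bound was computed from 3 counts.

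Members and gene lists were chosen with earlier results of these data known. Genes named in the text were, in each direction, the 12 with the largest change at a mean of at least 1 CPM without overlap, the 6 most abundant calls, all members of the Hox, gastric, intestinal, pyloric and both Wnt lists, up to 4 called members of each other list or its 2 most abundant, the 6 largest interactions and opposite calls. Others are said to be named after their values had been seen. Alternatives were DESeq2, relative log expression factors, spike-in scaling, 1 RUVg factor (the study used such factors with DESeq2), no low-count filter, the 4 *Eed* KO libraries alone, a replicate block, each library left out, and for peaks a higher threshold, a wider window and a larger overlap. Control peak lists and the adult counts were not used here, except that gene positions and lengths came from the header columns of an adult table. A few members of the lists are not reported here. Promoter letters came from a RefSeq table for GRCm38.p6.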

Additional observations from a re-analysis of the deposited data

Results flagged for a closer look

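The results below are genes named in the report whose difference between the organs itself differed between *Eed* KO and control in the edgeR interaction test, each given with its Benjamini-Hochberg adjusted p at a threshold of 0.2. No group held 4 or more libraries, and no single library was tested for standing apart.

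Hox genes made up the largest set. *Eed* KO had the smaller organ difference for *Hoxc8* (adjusted p = 0.00052), *Hoxc9* (0.0081), *Hoxc6* (0.016), *Hoxc10* (0.0701), *Hoxd12* (0.046), *Hoxd11* (0.053) and *Hoxd9* (0.054), all of which were called in both genotypes. It was called in control alone for *Hoxa11* (adjusted p = 0.0081), *Hoxa10* (0.0099), *Hoxa13* (0.0099), *Hoxd13* (0.014) and *Hoxc11* (0.073). The fitted interaction of the Hox genes without counts in the control stomach depends on the prior count.

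Among organ factors, the gastric *Mecom* (adjusted p = 0.0303), *Barx1* (0.031), *Nr2f1* (0.073) and *Sox9* (0.11) and the intestinal *Nkx2-3* (0.12) were called in the same direction in both genotypes with a smaller difference in *Eed* KO, as was *Cyp26a1* (0.14).

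A difference called in *Eed* KO and not in control, with the interaction past its threshold, was found toward the intestine for *Cldn15* (adjusted p = 0.053), *Il33* (0.057), *C1qtnf3* (0.073), *Tmem215* (0.12) and *P2ry1* (0.14). Toward the stomach it was found for *Dsc2* (adjusted p = 0.057), *Crh* (0.0701), *Lhfpl2* (0.0701), *Ebf2* (0.073), *Epyc* (0.073), *Kcnh1* (0.12), *Sstr4* (0.18) and *Mgp* (0.20). *Syt4* was called in opposite directions in the 2 genotypes (adjusted p = 0.067).

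With each of the 8 libraries left out in turn, the interactions of *Hoxc6*, *Hoxc8*, *Hoxc9*, *Hoxd11*, *Hoxd12*, *Hoxd13*, *Hoxa10*, *Hoxa11*, *Hoxa13*, *Mecom* and *Barx1* passed in every fit. Those of *Hoxc10*, *Hoxd9* and *Cldn15* passed in 7 of 8 fits and that of *Dsc2* in 6. The others passed in at most 5, and of these *Kcnh1*, *Sstr4*, *P2ry1*, *Sox9* and *Cyp26a1* passed in 2 and *Mgp* and *Tmem215* in 1 (adjusted p up to 0.53).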

How the results depend on the processing

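Of 120 called genes named in the report 57 stayed called without each of the 8 libraries in turn. DESeq2 and relative log expression factors called 231 and 235 of the same 237 intestinal genes and 454 and 472 of the 477 gastric genes. Spike-in scaling gave 20 intestinal and 95 gastric genes (20 of the 237 and 87 of the 477), 20 interactions, 58 differences shared with control, 1 Hox gene, 4 gastric factors and 0 smooth muscle markers. The 4 *Eed* KO libraries alone gave 129 and 268 genes, 6 Hox genes and 1 smooth muscle marker. The interaction called 207 genes with DESeq2, 162 with 1 RUVg factor and 237 without the low-count filter. With a replicate block, 357 intestinal and 774 gastric genes and 350 interactions were called. Of named genes not called in the report, *Nkx2-5*, *Gata3*, *Tlx1*, *Hoxc12*, *Hoxb13* and *Rgs4* were called with the block, and these and *Ednrb* without the low-count filter. The deviations of same-numbered libraries from their group means correlated at 0.748 between the *Eed* KO organs, 0.37 between the control organs and 0.138 to 0.282 in the other pairs of groups, but the labels do not say that a number marks an embryo, litter or day, and there were 2 numbers. With single libraries left out, the calls ran from 89 to 225 in the intestine and 200 to 414 in the stomach, interactions from 27 to 97, shared differences from 231 to 350, Hox genes from 5 to 8, gastric factors from 7 to 8 and smooth muscle markers from 0 to 11. The share of genes with a peak in both lists was 75.95% and 81.76% at a -log10 q of at least 5 (84.91% over all genes) and 95.78% and 95.18% within 5000 bases (93.88% over all genes). The cause of these shifts was not tested. Counts at or below 3 per group limit folds to intervals or bounds.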
